A study of Mus musculus with 6 samples.

Results

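The regions described here are 543 stretches of the mouse genome, each 3000 bp or wider. At each, capture with probes for the long non-coding RNA LncMyoD gave peaks in both replicates. They were found by joining all overlapping peaks of both deposited peak lists, keeping the joined regions with at least 1 peak of each list, and then keeping those on the 19 autosomes with a width of 3000 bp or more. The rule left 543 of 91707 shared regions on the autosomes (0.592%), out of 97493 shared regions in all. The members were chosen by width and by presence in both lists, so widths, peak numbers, folds and fragment counts are given as descriptions and were not tested.

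Primary myoblasts of C57BL/6 mice, with skeletal muscle as the labelled source, were kept in 2% horse serum for 2 days and harvested as differentiated myotubes. ChIRP was done on sonicated nuclei with biotin-labelled DNA probes in an odd pool and an even pool, and input DNA was sequenced beside them. These 3 groups had 2 replicates each, 6 samples in all. The labels give no sex, age or number of animals, no untreated or undifferentiated sample, and do not state that replicates 1 and 2 came from different cultures, so differences between the lists can be technical.

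LncMyoD is transcribed from DNA close to Myod1. MyoD, the transcription factor that commits cells to muscle, switches it on when myoblasts leave the cell cycle and differentiate. ChIRP crosslinks RNA to chromatin, pulls the RNA down with short complementary probes and sequences the DNA that comes with it. A peak caller then marks every stretch where captured fragments pile up above a local background, so a wide region can be 1 long stretch of signal or several adjacent ones.

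Sequences are shown first for places where a wide region covered the annotated start of a gene, because these are the DNA stretches on which the later comparisons of composition and motifs rest. Each run is the 250 bases before the start, 5′ to 3′ on the strand of the gene, from RefSeq's GRCm38.p6 table, the assembly behind the build mm10. Capitals mark matches to CANNTG, the E-box bound by MyoD and other basic helix-loop-helix factors. Inf2, the gene of an actin-assembling formin, was covered by a region of 4354 bp with folds of 87.0 in replicate 1 and 68.9 in replicate 2. The table of starts holds protein-coding and long non-coding RNA genes only, and this was the widest region over a start in it. Its upstream bases lie at chr12:112588517-112588766 on the plus strand and hold 1 E-box.
Inf2: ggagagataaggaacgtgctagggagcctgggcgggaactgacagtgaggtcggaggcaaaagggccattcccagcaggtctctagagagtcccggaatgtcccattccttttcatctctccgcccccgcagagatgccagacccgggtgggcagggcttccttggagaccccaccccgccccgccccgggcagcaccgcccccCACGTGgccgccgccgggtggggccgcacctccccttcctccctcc
Myocos, a small gene on the strand opposite to myocilin, was covered by a region of 3943 bp with folds of 19.5 and 46.6. Its upstream bases lie at chr1:162658220-162658469 on the minus strand and hold 3 E-boxes, 1 of them CAGCTG, the form that MyoD prefers.
Myocos: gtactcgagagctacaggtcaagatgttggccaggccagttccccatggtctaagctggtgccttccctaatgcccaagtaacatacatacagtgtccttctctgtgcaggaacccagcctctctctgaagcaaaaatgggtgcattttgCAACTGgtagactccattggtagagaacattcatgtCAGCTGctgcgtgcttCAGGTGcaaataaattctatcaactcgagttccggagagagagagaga

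The next sequences come from arrays of repeated gene models in which several wide regions lay side by side. On chromosome 6, the upstream bases of Gm40369, Gm40367, Gm36327 and Gm40364 were identical at 250 of 250 positions in every pair. They are shown once, for Gm40364 (chr6:47679657-47679906, plus strand).
Gm40364: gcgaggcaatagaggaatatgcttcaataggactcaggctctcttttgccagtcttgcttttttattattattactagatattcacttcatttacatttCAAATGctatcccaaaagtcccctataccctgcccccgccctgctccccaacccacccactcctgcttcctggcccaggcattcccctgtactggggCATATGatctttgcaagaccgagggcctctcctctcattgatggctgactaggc
On chromosome 10, Gm4305 (chr10:100350843-100351092, plus strand) and Gm4307 were also identical at 250 of 250 positions. Gm4312 (chr10:100382561-100382810, minus strand) matched them at 242 of 253 aligned positions (95.7%).
Gm4305: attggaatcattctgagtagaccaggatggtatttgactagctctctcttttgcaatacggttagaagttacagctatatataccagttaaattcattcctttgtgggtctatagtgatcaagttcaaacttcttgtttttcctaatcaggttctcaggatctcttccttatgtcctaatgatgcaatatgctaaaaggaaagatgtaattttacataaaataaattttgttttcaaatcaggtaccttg
Gm4312: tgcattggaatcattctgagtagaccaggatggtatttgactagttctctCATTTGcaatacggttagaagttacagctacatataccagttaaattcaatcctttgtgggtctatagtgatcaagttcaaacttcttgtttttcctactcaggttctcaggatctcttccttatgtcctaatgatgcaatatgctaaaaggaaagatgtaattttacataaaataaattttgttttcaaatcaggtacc
The upstream bases of unrelated genes in wide regions were far less alike: over Inf2, Gm52091, Gm36816, Myocos and Vwa7, identity ranged from 39.9% to 50.2% of aligned positions.

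A single annotated microRNA hairpin of 919 on the autosomes lay inside a wide region. Hairpins in narrower shared regions were not counted, so this is a description only. Mir6546 is on the minus strand of chromosome 1 (171064591 to 171064652), in a region of 5424 bp that also holds tRNA genes. Capitals mark the seed, bases 2 to 8, which pairs with target RNAs.
mmu-miR-6546-5p: aGGCGCCUcugagcuugugcuugu
mmu-miR-6546-3p: gAGCGAAGcccaagcgccaga

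The 543 wide regions covered 1.9937 Mb. Widths ran from 3000 to 19924 bp with a median of 3389 bp, and most regions lay close to the minimum. There were 326 regions under 3500 bp, 123 from there to under 4000 bp, 70 from there to under 5000 bp and 24 of 5000 bp or more. Fold enrichment, the authors' value at each summit, is the pileup of captured fragments plus 1 over the background plus 1. The strongest peak of each wide region had a median fold of 44.8 in replicate 1 (range 2.64 to 117) and 45.4 in replicate 2 (range 4.17 to 120). In the 4226 shared regions of the next narrower band, from 2000 bp to under 3000 bp, the medians were 38.9 and 39.8. In all 91164 narrower shared regions they were 10.7 and 12.01. Median fold was higher in each wider bin up to about the minimum, as the plot of median fold by width shows, and had no steady course above it. Over all shared autosomal regions Spearman's rho between width and fold was 0.69 in replicate 1 and 0.72 in replicate 2, a description over regions of the same libraries.

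**Figure D1:**
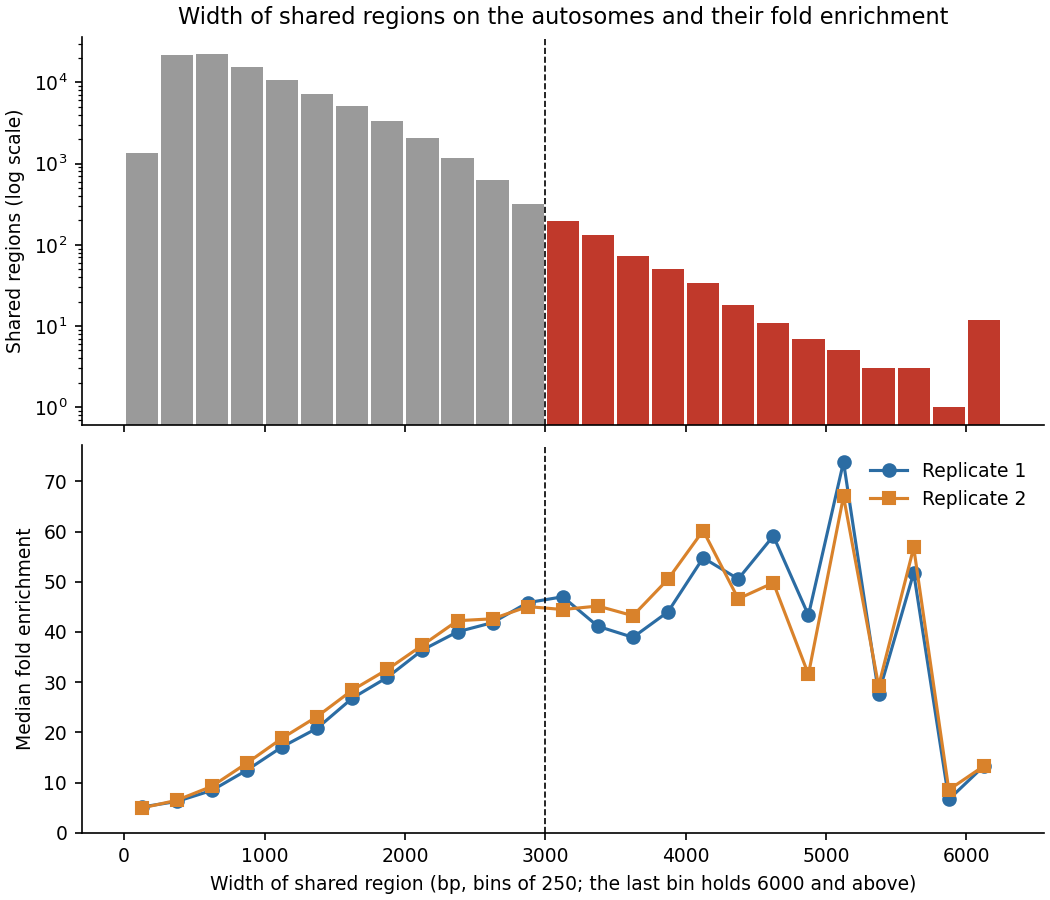
Number of shared autosomal regions in width bins of 250 bp (upper panel, log scale, wide regions in red) and the median fold enrichment of each bin in replicate 1 and replicate 2 (lower panel). Median fold is 5.14 and 4.94 in the narrowest bin and 47.0 and 44.5 in the first bin past the dashed line at 3000 bp. In the last bin, 12 regions of 6000 bp or more, it is 13.3 in both lists.

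The number of fragments behind a value sets its precision, and it was rebuilt from the deposited fold and p of each peak. Wide regions had a median pileup of 137 overlapping fragments at the strongest summit in replicate 1 (range 31 to 382) and 163 in replicate 2 (range 35 to 399). The 2000 bp band had medians of 111 and 136, and all narrower shared regions 30 and 40. Most wide regions were thus well covered in both lists. This follows partly from the rule, because each value is that of the strongest peak and a wide region often holds several. Width and pileup also rose together over all shared autosomal regions, with Spearman's rho of 0.68 in replicate 1 and 0.72 in replicate 2. Ordered by the mean percentile of −log10 q over both lists, wide regions made up 7 of the first 10 shared autosomal regions and 32 of the first 100. They made up 124 of the first 1000 and 414 of the first 10000. The lowest wide region took place 44432.

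A wide region was seldom 1 wide peak in each list. In 150 regions (27.6%, 95% exact binomial interval 23.9 to 31.6%) the region was built from 1 peak of each list, against 47.0% in the 2000 bp band. The intervals here and below cover counting error only. Their edges lay close together, with a median distance of 164.5 bp between the starts and 168.5 bp between the ends, and both lists covered a median of 87.9% of the region. The other 393 regions chained more than 1 peak of at least 1 list, up to 6 of replicate 1 and 5 of replicate 2. A single peak of 3000 bp or more stood in both lists in 101 regions, in replicate 1 alone in 100, in replicate 2 alone in 137 and in neither list in 205. In the last group only the joined peaks reached the minimum. No region of that width was found in 1 list only on the autosomes, where the widest such region was 2594 bp.

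The strongest summits of the lists mostly fell together. They lay within 200 bp of each other in 346 wide regions (63.7%, interval 59.5 to 67.8%) and over 1000 bp apart in 83 (15.3%, interval 12.4 to 18.6%). In the 2000 bp band these shares were 68.0% and 6.06%. A wider region leaves more room for distant summits and for several peaks, so these contrasts follow partly from the rule. Another shared region lay within 1 kb of 120 wide regions (22.1%, interval 18.7 to 25.8%). The share was 14.7% in the 2000 bp band and 16.4% in all narrower shared regions. Without the clusters described next, the share of wide regions was 18.5% (interval 15.2 to 22.1%), an interval that holds the share of all narrower shared regions.

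The widest regions were not the strongest ones. Of the 12 widest, 6 lay in 1 array of 5S ribosomal RNA genes on chromosome 8, which encode the small RNA of the large ribosomal subunit. The array held 9 wide regions between 123536795 and 123624466, overlapping 47 annotated rRNA genes, with widths from 3355 to 19924 bp. Its folds ran from 6.67 to 15.0 in replicate 1 and from 8.58 to 15.8 in replicate 2, below the medians of 44.8 and 45.4. The pileups of 60 to 74 and 46 to 73 fragments were also below the medians, while the background of 3.54 to 8.29 and 3.44 to 4.48 fragments was above the commonest values of 1.723 and 2.238. The widest region of all, 123536795 to 123556718, held 11 of these genes and had folds of 13.1 and 15.8. It consisted of 2 peaks of replicate 1 and 5 of replicate 2, and its strongest summits lay 11900 bp apart.

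**Figure D2:**
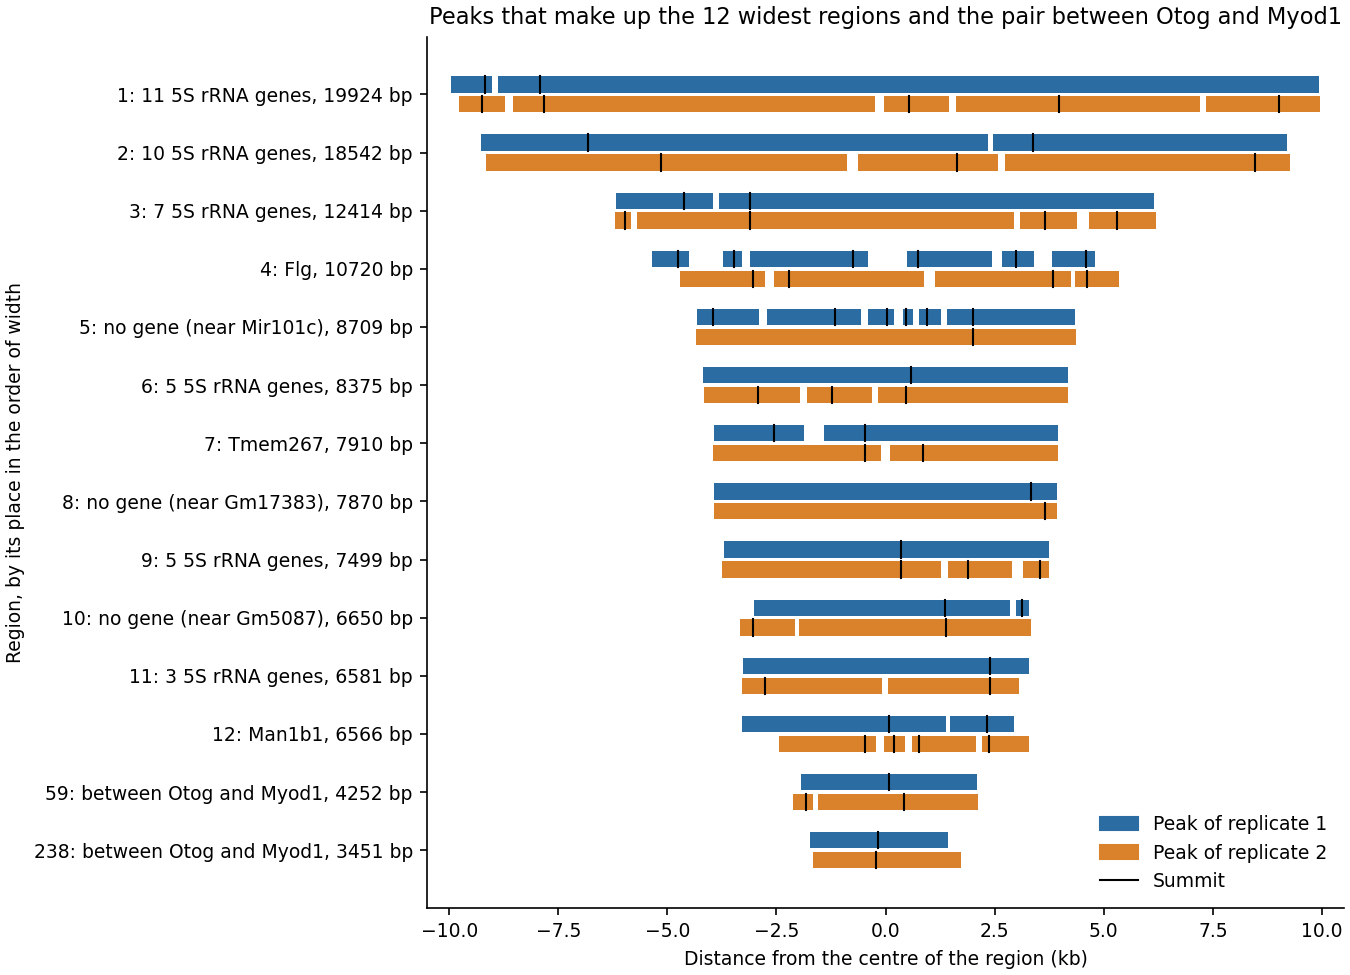
Peaks of replicate 1 (blue) and replicate 2 (orange) within the 12 widest regions and the pair between Otog and Myod1, placed by distance from each region's centre in kb, with summits as black lines. Regions of the 5S rRNA array shown here are chains of 2 to 5 peaks in replicate 2 but hold only 1 or 2 peaks of replicate 1. Flg is a chain of several peaks in both lists, whereas the 3451 bp region between Otog and Myod1 is 1 peak in each list.

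The remaining 6 of the 12 widest differed in strength. Flg, the gene of the skin barrier protein filaggrin, held the fourth widest region (chromosome 3, 93282456 to 93293175, 10720 bp), a chain of 6 peaks of replicate 1 and 4 of replicate 2 with folds of 50.9 and 43.9. A region of 6566 bp in Man1b1, which encodes a mannosidase of the endoplasmic reticulum, had folds of 62.7 and 60.8 (chromosome 2, 25334579 to 25341144). A region of 6650 bp on chromosome 14, 12796 bp from Gm5087, had folds of 31.7 and 38.5. These 3 had backgrounds of at most 3.73 fragments. The other 3 did not. A region of 8709 bp near the start of chromosome 9 had folds of 3.51 and 4.46 over backgrounds of 70.8 and 53.9 fragments. A region of 7910 bp in Tmem267 on chromosome 13 had folds of 4.10 and 5.11 over backgrounds of 50.2 and 38.7 fragments. A region of 7870 bp on chromosome 18, 167365 bp from its nearest gene Gm17383, had folds of 7.01 and 8.49 over backgrounds of 16.1 and 13.3 fragments. The pileups of these 3, from 119 to 251 fragments in replicate 1 and 120 to 244 in replicate 2, were within the range of most wide regions, so the low folds went with a high background.

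**Figure D3:**
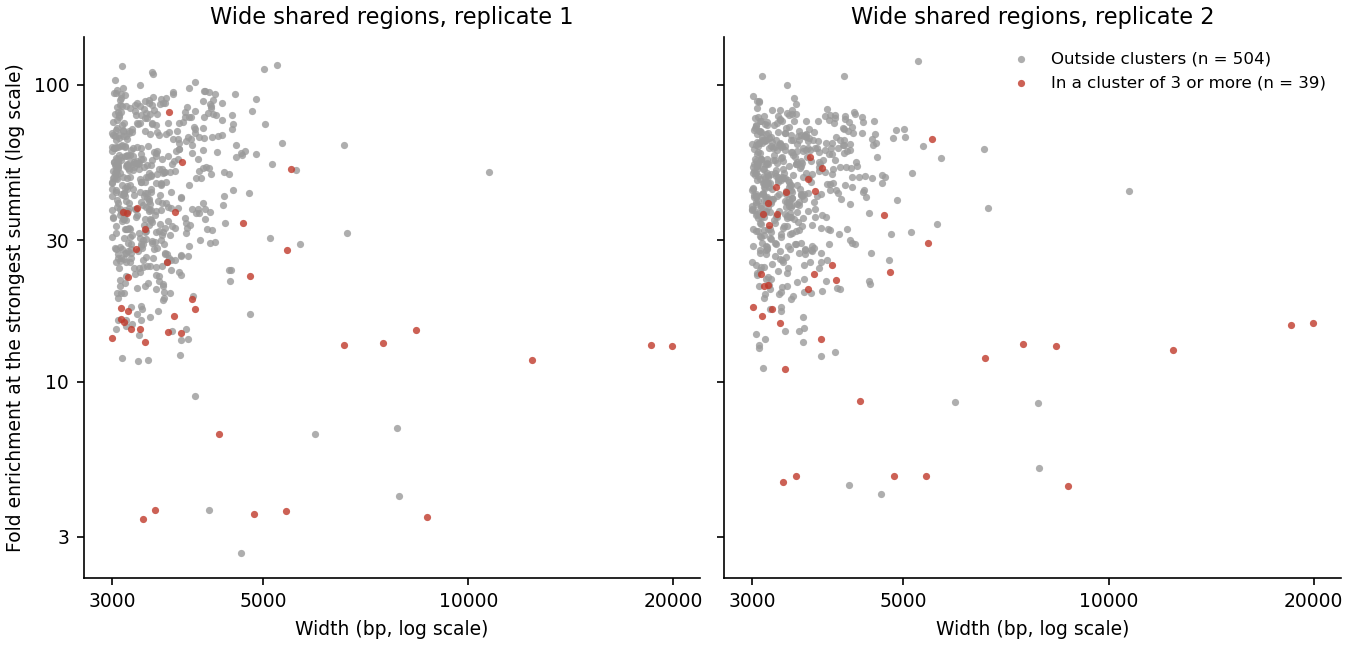
Fold enrichment at the strongest summit against width for the 543 wide regions in each list (both axes log scale). Regions in clusters of 3 or more (red, n = 39) include the 3 widest regions and all 5 regions of the chromosome 9 cluster, at folds of 3.45 to 4.83.

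A high background, 8 fragments or more in both lists, was found at 22 wide regions (4.05%, interval 2.56 to 6.07%), against 0.331% in the 2000 bp band and 0.276% of all narrower shared regions. Of the 22, 16 stood in clusters, defined here after the values were seen as 3 or more wide regions with gaps of at most 50 kb. On chromosome 9, 5 wide regions between 2999941 and 3037583, with no annotated gene, had folds of 3.45 to 3.70 in replicate 1 and 4.46 to 4.83 in replicate 2 over backgrounds of 70.8 to 88.7 and 53.9 to 67.9 fragments. On chromosome 6, 7 wide regions between 47653629 and 47686991 and 4 between 47742850 and 47765158 covered Rn4.5s, a gene of the small rodent RNA 4.5S, and repeated gene models such as Gm40369 and Gm40364. Their folds ran from 14.0 to 18.95 and 15.8 to 24.7 over backgrounds of 10.98 to 15.9 and 8.46 to 12.9 fragments. The upstream sequence shown for Gm40364 is the one shared by 4 of these models.

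The remaining 6 high backgrounds stood outside these clusters. One, in Mroh2a on chromosome 1 (88254154 to 88257399), had folds of 23.1 and 29.0 over backgrounds of 8.29 and 8.85 fragments and was paired with a wide region that ended at 88303331. A region over Rn18s-rs5, a sequence related to the 18S ribosomal RNA gene, and AY036118 on chromosome 17 (39842943 to 39848899) had folds of 6.64 and 8.56 over backgrounds of 37.2 and 28.8 fragments. The lowest fold of replicate 1 and of replicate 2 came from the same region, over the pseudogenes Gm10222 and Gm10925 on chromosome 1 (24611539 to 24616175), with 2.64 and 4.17 over backgrounds of 49.7 and 35.7 fragments. These genes are named after their values were seen. Copy number, repeat annotation and mappability were not measured, so their part in the width or background of any region was not tested.

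**Figure D4:**
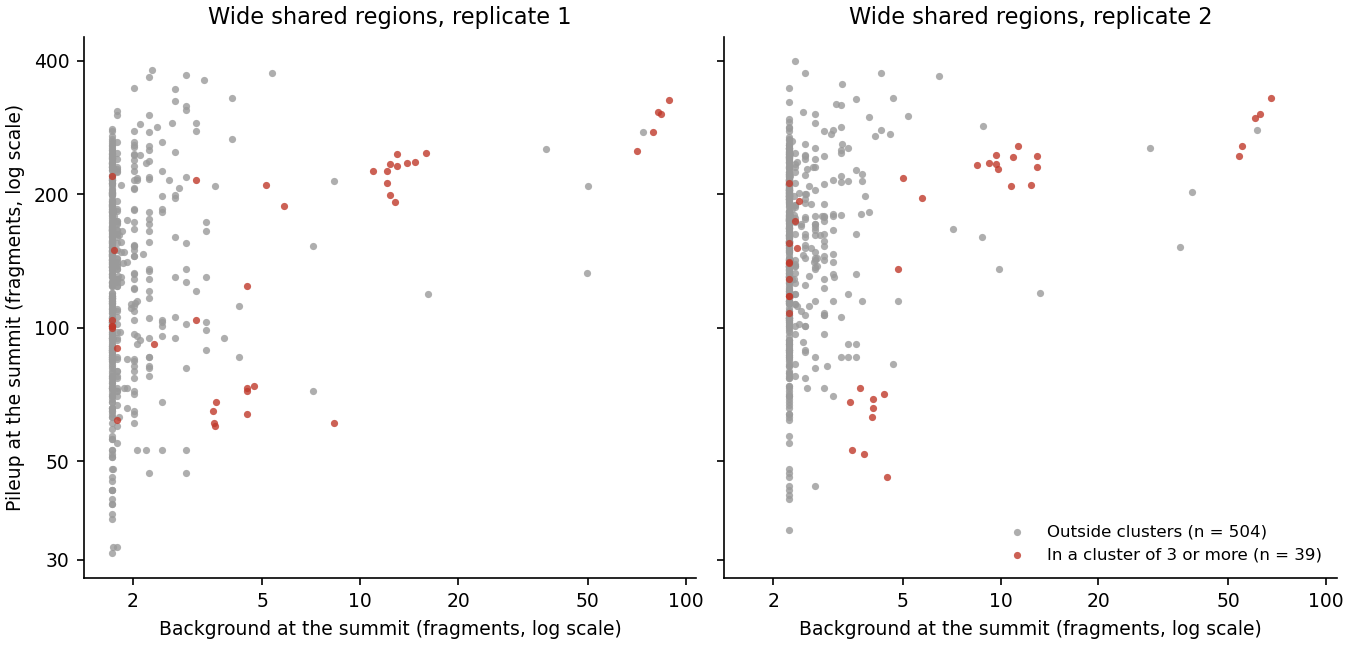
Fragments piled up at the strongest summit against the background there for the 543 wide regions in each list (both axes log scale). Most regions sit at or near the lowest background, 1.723 fragments in replicate 1 and 2.238 in replicate 2, as do the clusters of chromosomes 10 and 5. Clustered regions (red) of chromosomes 1, 6, 8 and 9 lie at higher background, reaching 88.7 and 67.9 fragments on chromosome 9.

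Not every array had a high background. On chromosome 10, 8 wide regions lay between 100302031 and 100384339, with 1 gene model under each, among them Gm4305, Gm4307 and Gm4312. Their median spacing was 5148 bp, but the region over Gm9476 stood apart from the rest at the largest spacing, 47860 bp. The Gm9476 region had the highest fold of replicate 2 in the cluster. Its background in replicate 1, the highest there, was the same as that of the Gm4312 region. Folds of the 8 regions were 25.4 to 55.0 in replicate 1 and 36.8 to 65.8 in replicate 2, with backgrounds of 1.723 to 3.14 and 2.238 to 2.33 fragments. The regions of Gm4305 and Gm4307, whose upstream bases are identical, had folds of 37.5 and 38.6 in replicate 1 and 36.8 each in replicate 2. Their pileups were 101 and 104 fragments in replicate 1 and 118 each in replicate 2. On chromosome 1, 3 wide regions between 171064230 and 171084740 covered 11 tRNA genes, which encode the adaptors of protein synthesis, and the hairpin of miR-6546. Their folds were 22.7 to 34.3 and 23.4 to 36.4 over backgrounds of 4.50 to 5.82 and 4.86 to 5.73 fragments. The last of the 7 clusters, 3 regions at Tmem248 and Tyw1 on chromosome 5, had folds of 22.6 to 81.2 and 33.7 to 57.0 at near-lowest backgrounds.

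The 39 clustered regions left 504 wide regions outside clusters. Their median folds were 47.6 in replicate 1 and 47.0 in replicate 2, and their median pileups 137 and 162.5 fragments. Only 14 of them were 5000 bp or wider, with median folds of 51.3 and 47.1, against 28.4 and 30.7 for all 24 regions of that width.

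The strongest regions by q lay elsewhere than the arrays. Gm17266, a protein-coding gene model on chromosome 18, held the region with the highest mean percentile, with pileups of 382 and 399 fragments, the highest of all wide regions in each list, and summits 5 bp apart. A region over Podnl1, a gene of a small leucine-rich matrix proteoglycan, on chromosome 8 had pileups of 371 and 375 fragments and was followed within the gene and Cc2d1a by another wide region. A region in Myh14, which encodes a myosin of non-muscle cells, had pileups of 308 and 303 fragments and summits 1 bp apart. The remaining strongest regions lay outside genes. The region nearest to LOC115487699 on chromosome 1 had pileups of 348 and 347 fragments, and the one 1063 bp from Rnf223 on chromosome 4 had 367 and 375. The region beside Gdf3, a growth factor gene, had pileups of 363 and 354 fragments, yet only 37.3% of it was covered by both lists. Pileups were 325 and 328 fragments at the region nearest to Gm38827 and 316 and 306 at the one nearest to Gm35341. A region 1350 bp from Tfam, the gene of the mitochondrial DNA packaging factor, had pileups of 376 and 370 fragments over backgrounds of 5.38 and 6.45, so its folds of 59.1 and 49.8 were lower than those of regions with fewer fragments.

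A pair of wide regions stood between Otog and Myod1, in the interval from which LncMyoD is transcribed. The region on chromosome 7 from 46344299 to 46347749 was 1 peak in each list. Its pileups were 302 and 291 fragments, its summits 41 bp apart, and 89.7% of it was covered by both lists. It was the 238th widest and took place 15 among shared autosomal regions by mean percentile of −log10 q. The region from 46348808 to 46353059 was 1 peak of replicate 1 and 2 of replicate 2, with pileups of 252 and 258 fragments and summits 349 bp apart. It was the 59th widest and took place 68. Both had folds above the medians of the wide regions, 109 and 90.2 for the first and 92.9 and 80.0 for the second, and neither was unusual in width among them. The gene table does not name LncMyoD. Whether the DNA was captured through the RNA or by the probes themselves cannot be told apart from these lists, here or at any other wide region.

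The position of the wide regions against genes was not used to choose them, and the shares below depended on the minimum. The midpoint lay in a protein-coding gene at 260 wide regions (47.9%, interval 43.6 to 52.2%), against 46.1% in the 2000 bp band and 42.5% of all narrower shared regions. The midpoint lay within 1 kb of either end of a protein-coding gene at 53 (9.76%, interval 7.40 to 12.6%), against 6.39% and 4.79%. Outside the clusters the shares were 49.4% and 9.72%. At a minimum of 4000 bp (94 regions) they were 34.0% and 5.32%, below those of the 2000 bp band, so neither direction held there. Because a wide region covers more ground, its length was taken into account for gene starts: wide regions held 32.1 starts of protein-coding and long non-coding RNA genes per Mb of region, the 2000 bp band 30.8, all narrower shared regions 27.4, and the autosomes as a whole 12.8. For these 2 gene classes the wide regions thus differed little per length from other shared regions. Starts of rRNA, tRNA, microRNA genes and pseudogenes are not in this count, and the arrays described above hold 47 rRNA genes on chromosome 8 and 11 tRNA genes on chromosome 1. Protein-coding gene bodies made up 46.2% of their bases, against 43.3% in narrower shared regions and 40.0% of the autosomes.

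Wide regions overlapped 302 protein-coding genes. These genes had a median length of 52287 bp, against 17491 bp for all 20665 protein-coding genes on the autosomes, and 35.8% of them were 100 kb or longer, against 11.2%. A longer gene offers more room for a region, and the part of length in this was not tested. By bases, protein-coding genes of 100 kb or longer held 19.1% of the wide regions, 21.6% of the 2000 bp band and 22.2% of all narrower shared regions. Wide regions thus had no larger share of their bases in long genes than other shared regions. No gene held 3 or more wide regions and 8 held 2. The examples from these 8 are named after their values were seen. Camta1, a transcription activator gene, held regions with folds of 63.9 and 62.4 and of 19.97 and 24.4. Hcn2, a pacemaker channel gene, held regions with folds of 35.0 and 35.8 and of 47.1 and 57.1. The pair in Sorcs2, a sorting receptor gene, had folds of 52.2 and 65.5 and of 86.7 and 72.2. No annotated gene of any kind was overlapped by 184 of the 543 regions. A long non-coding RNA gene was overlapped by 64, a pseudogene by 24, a transcribed pseudogene by 2, an rRNA gene by 10 and tRNA genes by 3. These classes were not counted for narrower shared regions, so the counts are descriptions. By bases, long non-coding RNA gene bodies made up 8.75% of the wide regions and 9.26% of the 2000 bp band. They made up 9.14% of all narrower shared regions and 8.71% of the autosomes.

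Listed genes had wide regions about as often as all protein-coding genes. Of 405 autosomal genes in 15 lists of muscle, housekeeping and other-tissue genes, 8 had a wide region within 5 kb of the gene body (1.98%), against 1.78% of all protein-coding genes. The share over the lists was thus near the background. None of the 33 myogenic regulators, which include Myod1, Myf5, Myog and the MEF2 genes, had one. A shared region of any width lay within 5 kb of 26 of them (78.8%), against 82.0% of all listed genes and 72.2% of all protein-coding genes. No wide region was near genes of the dystrophin complex (0 of 22), the cell cycle (0 of 30), growth factor signalling (0 of 37) and LncMyoD's known protein partners (0 of 5). Ribosomal protein genes (0 of 30), ubiquitously expressed genes (0 of 24), hepatocyte genes (0 of 20) and markers of fibroblasts, endothelium, glia and fat (0 of 23) had none either.

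Myoblast fusion and adhesion genes supplied 2 of 25. Dock1, an activator of the small GTPase Rac that myoblasts need for fusion, held a region of 5147 bp (chromosome 7, 135168275 to 135173421) with pileups of 150 and 162 fragments and folds of 54.1 and 50.3. Boc, a cell-surface receptor that promotes myogenic differentiation, held a region of 3137 bp with pileups of 127 and 181 fragments and folds of 45.1 and 45.0. Both had summits close together, 141 and 9 bp apart. The sarcomere list supplied 1 of 54. Ttn, the gene of the giant sarcomere spring titin, held a region of 3431 bp with pileups of 80 and 192 fragments and folds of 29.8 and 59.6. It was 1 peak of replicate 2 and 3 of replicate 1, and the lists disagreed on its strength.

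Energy metabolism supplied 1 of 25. Cox7a1, which encodes the heart and muscle form of a cytochrome c oxidase subunit, was covered from 159 bp past its start to beyond its end by a region of 5671 bp that also overlapped Capns1, the small calpain subunit gene (chromosome 7, 30184330 to 30190000). Its pileups were 78 and 183 fragments and its folds 29.0 and 56.8, with summits 2402 bp apart, so here too the lists differed. Excitation-contraction coupling genes supplied 1 of 33. Atp2a1, the calcium pump of the fast-fibre sarcoplasmic reticulum, had a region of 3306 bp that lay 2754 bp outside the gene. Its pileups of 77 and 55 fragments and folds of 28.6 and 17.3 were below the medians of the wide regions in both lists.

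Lists of other tissues gave 0 to 2 genes each as well. Rbfox3, the gene of the neuronal nuclear protein NeuN, held the strongest region of any listed gene, with pileups of 246 and 243 fragments, folds of 90.7 and 75.4 and summits 3 bp apart (1 of 23 neuronal genes). Among 22 blood and immune genes, Zap70, a T cell kinase, held a region with folds of 45.8 and 37.2, and Runx1, a transcription factor of blood development, held one with folds of 42.6 and 44.5. Such small counts do not set any list apart.

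Further genes with a known role in muscle or its precursors are named after their values were seen. They were chosen from the 302 overlapped protein-coding genes, and no share of such genes was measured. Mypn, the gene of the sarcomere protein myopalladin, held a region of 3401 bp with folds of 37.7 and 39.1. Six2, a homeobox factor gene, was overlapped by a region with folds of 55.9 and 43.5, and Twist2, a bHLH repressor of myogenic factors, by one with folds of 80.4 and 80.5. Gsk3b, a kinase gene of Wnt signalling, had its start covered by a region with folds of 87.2 and 74.4. Compared with the medians of all wide regions, these folds were lower at Mypn and higher at Twist2 and Gsk3b.

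Among protein-coding and long non-coding RNA genes, the starts of 61 genes, 64 starts in all, lay inside 56 wide regions. Of these genes 52 were protein-coding. None belonged to a muscle list, so the genes named by rule are those of the widest regions over such a start: Inf2, Gm52091, Gm36816, Gm40364, Myocos and Vwa7. The sequences of Inf2, Gm40364 and Myocos are printed above. The 250 bases before these starts had a median GC content of 58.8%, against 58.0% at the 2237 starts in narrower shared regions and 52.4% over all 31396 autosomal starts. Their median ratio of observed to expected CpG was 0.53, against 0.59 and 0.38. Outside the clusters the medians were 60.0% and 0.63. The starts in wide regions thus resembled other captured starts in composition. Only the start itself had to lie in a region, so parts of some windows lay outside it, as at Gm52091. Array starts lay below the lower quartile of 49.5%, with 33.2% GC upstream of Gm4305 and 49.2% upstream of Gm40364. Some starts outside the arrays were lower than Gm40364, such as H3c13 at 39.6%, and Inf2 and Vwa7 were at 68.4%.

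Matches to muscle factor motifs were counted on both strands in the same windows. CANNTG stood in 38 of the 64 (59.4%), in 64.3% of the windows at starts in narrower shared regions and in 66.1% of all autosomal windows. CAGCTG, which is itself a CANNTG, stood in 9 (14.1%), against 15.0% and 13.0%. The motif of the muscle factor MEF2 was in none of the 64, in 0.313% at narrower shared regions and in 0.516% of all windows. Outside the clusters the shares of CANNTG and CAGCTG were 57.9% and 15.8%. These shares lay near those of the narrower shared regions.

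Density varied between chromosomes. Wide regions numbered 0.223 ± 0.0819 per Mb (mean and SD over 19 autosomes) and 5.90 ± 1.71 per 1000 shared regions. Chromosome 10 had the most, 60 regions, 0.459 per Mb and 9.86 per 1000 shared regions, and chromosome 14 the fewest per 1000, 14 regions and 3.08. Chromosome 7 followed chromosome 10 with 49 regions and 8.19 per 1000. Outside the clusters, chromosome 10 still had 52 wide regions, 8.54 per 1000, and chromosome 7 had 49. The order by count changed with a higher width minimum: at 4000 bp chromosome 8 had 14, chromosome 7 had 11 and chromosome 10 had 9. Many of those on chromosome 8 lay in its 5S rRNA array. At 2500 bp chromosome 10 was still first with 136, ahead of chromosome 7 with 130. Chromosomes 6 and 8 went from 7.50 and 7.94 to 5.44 and 6.11 per 1000 without their arrays.

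**Figure D5:**
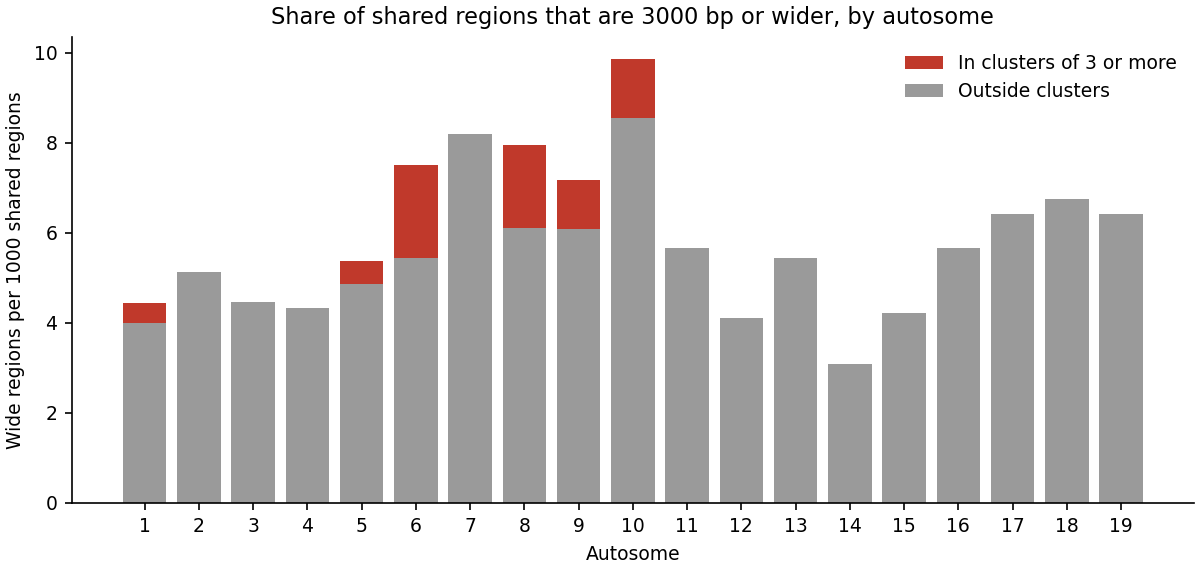
Wide regions per 1000 shared regions on each autosome, split into those outside clusters (grey) and those in clusters of 3 or more (red), stacked from 0. Chromosome 10 is highest at 9.86, or 8.54 without its cluster, and chromosome 14 lowest at 3.08.

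The densest stretch of 1 Mb lay on chromosome 6 from 47655596 and held 12 wide regions by their midpoints, 11 of them in the arrays of Gm models and the other in Repin1, a zinc finger gene, with folds of 49.1 and 52.3. Outside the clusters the densest stretches, with 6 wide regions per Mb, lay on chromosome 10 between 79265050 and 81192224. The genes there are named after their values were seen. Regions overlapped Shc2, Hcn2 and Polrmt, the mitochondrial RNA polymerase gene, as well as Ndufs7, a complex I subunit gene, Onecut3, Ap3d1 and Lsm7. Their folds ran from 21.0 at Ap3d1 to 72.0 at Vmn2r81 in replicate 1, and from 14.8 to 74.4 at the same genes in replicate 2.

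The minimum of 3000 bp does not mark a step in the data. The regions just inside it, 3000 bp each, had folds of 37.9 and 25.3 near D630013N20Rik on chromosome 10, 59.8 and 38.3 in Cdh4 on chromosome 2, and 44.8 and 39.2 in A330093E20Rik on chromosome 18. Just outside it, a region of 2998 bp in Gm34725 had folds of 56.9 and 31.0, one of 2997 bp in Lrrc20 had 85.2 and 59.6, and one of 2996 bp on chromosome 5 had 66.2 and 77.2. Values on both sides overlapped.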

How the data were processed

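The labels name 6 samples, but the values analysed were those of 2 deposited peak lists, 1 for each replicate, in mm10 coordinates. MACS2 2.1.1, Bowtie2 2.3.2 and Picard 2.9.2 are the tools named by the submitters' processing notes. The sources used here give no order, parameters or threshold, and no treatment or control library for either call. The labels tie odd, even and input samples to the same list, so each list was used as a pooled list, and no SD or test over samples was possible. Per the layout of the deposited files, each peak has a fold enrichment (a ratio) and −log10 p and q at its summit. The deposited score was not used.

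Overlapping peaks (1 bp or more) were joined, and regions with both lists and 3000 bp or more on autosomes were kept. Pileup and background were solved from the deposited fold, (pileup + 1)/(background + 1), and p, the Poisson tail above the pileup. All pileups (100%) came out whole within 0.01, and 66.9% of the 157214 peaks of replicate 1 and 73.6% of the 179630 of replicate 2 shared 1 background. The median pileup over all peaks was 22 and 27 fragments. Duplicate removal and the choice of control library would change these counts. Joining and solving were tested on simulated data.

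Genes and starts came from RefSeq GRCm38.p6 without a repeat annotation. Regions and gene lists were chosen with earlier results of these data known. Named by rule were genes at the 12 widest and 10 strongest regions, the regions between Otog and Myod1, listed genes within 5 kb, genes with 3 or more regions, the densest Mb, 3 regions on each side of the minimum, and up to 6 genes whose start was covered. Shares carry exact 95% binomial (Clopper-Pearson) intervals. Alternatives were width minimum, overlap, fold and q minimum, windows, sex chromosomes, each list alone and, added after seeing the data, leaving out clusters. Tools were scipy 1.17.1, Biopython 1.88, matplotlib 3.10.9, pandas 2.3.3, numpy 2.4.6 and Python 3.11.15.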

Additional observations from a re-analysis of the deposited data

Results flagged for a closer look

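Wide shared regions also occurred in sequence that the report leaves out. Chromosome X held 6, 0.187% of its 3215 shared regions. Their folds ran from 12.7 to 75.7 in replicate 1 and from 15.2 to 54.7 in replicate 2. Unplaced or unlocalised scaffolds held 10, of which 9 were on a single scaffold, with backgrounds of 23.9 to 79.1 fragments in replicate 1. The mitochondrial genome was 1 wide region over all of its 16299 bp, with folds of 6.80 and 8.81 over backgrounds of 55.3 and 44.3 fragments. No list from input was analysed here, so these values have no control beside them.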

How the results depend on the processing

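The count of 543 wide regions depended on the definition of width. It was 1495, 94 and 24 with minimums of 2500, 4000 and 5000 bp, 147 when both lists had to cover 3000 bp, and 303 when linked peaks had to overlap by 50% of both. Single peaks of that width numbered 202 to 244 in 1 list alone. The share built from 1 peak of each list (27.6%) became 32.0% with peaks of at least 5-fold, and 34.8%, 23.4% and 20.8% with minimums of 2500, 4000 and 5000 bp. The share at gene ends (9.76%) became 25.6% with a window of 5 kb, 14.9% with any overlap and 5.32% at 4000 bp. The share inside genes (47.9%) became 53.6% with any overlap and 34.0% at 4000 bp. Density (0.223 per Mb) became 0.608 at 2500 bp and 0.0384 at 4000 bp. Listed genes with a wide region (8) became 14 with a window of 25 kb, 22 at 2500 bp and 2 at 4000 bp. The other 14 settings tried, leaving out the clusters among them, moved a value by less than its interval or a count by less than 1.5 times. No paired analysis was possible because each list pools the samples of a replicate and no test over samples was made. Depth limits the wide regions with the fewest fragments most. The lowest pileup was 31 fragments in replicate 1 and 35 in replicate 2, at different regions. These were not the regions of lowest fold: the lowest in both lists, 2.64 and 4.17, had pileups of 133 and 152 fragments.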
